A study of Mus musculus with 6 samples.

Results

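The genes described here encode enzymes of the mitochondrial carbon routes of muscle, in mice that had their ovaries removed and then received 17β-estradiol (E2) or not. They comprise 3 routes: the entry of pyruvate, the tricarboxylic acid (TCA) cycle with its transaminases, and the breakdown of the branched-chain amino acids (BCAA). A probe set, the group of short probes by which the array measures a transcript, was included when the platform annotation gave it exactly 1 gene symbol and that symbol was among 43 listed genes. This gave 99 of 45101 probe sets and 42 of the 43 genes. Mut, the methylmalonyl-CoA mutase at the end of the propionate route, was not analysed here. By route there were 29 probe sets of 12 genes for pyruvate, 44 of 17 genes for the TCA cycle and 26 of 13 genes for BCAA.

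Expression was measured on 6 arrays, 3 of OVX + E2 and 3 of OVX. All animals were female C57BL/6 mice ovariectomized at 4 months of age. OVX + E2 mice carried a pellet that held 0.18 mg of E2 and released it for 60 days, and OVX mice carried a placebo pellet, so both groups lack ovaries and no group with ovaries was on the arrays. The labels do not say if the arrays hold different mice, so that the p-values reflect the spread of these samples alone, part of which may be technical. The sample labels name the left ventricle of the heart and the study names the soleus, a hindlimb muscle. All 15 skeletal muscle markers lay in the top 5% of probe sets by level, whereas 2 of 14 measured heart markers did (Myl2 and Sln), and Tnni3, the cardiac troponin I, lay at percentile 29.8. The arrays therefore carried the markers of skeletal muscle, and the tissue is called muscle here.

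Pyruvate enters the mitochondrion and is turned into acetyl-CoA by the pyruvate dehydrogenase complex, which kinases (Pdk) switch off and phosphatases (Pdp) switch on. The TCA cycle oxidises acetyl-CoA and passes electrons to the respiratory chain, and slow muscle such as the soleus is rich in it. The branched-chain amino acids leucine, isoleucine and valine are broken down largely in muscle, through a dehydrogenase complex built like the pyruvate one and likewise held in check by a kinase. Estrogen receptors bind DNA at estrogen response elements, and the estrogen-related receptors, which bind a related element, are known regulators of mitochondrial genes.

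The promoters of an enzyme pair and of 2 members with a motif are printed here. The pair was chosen because the difference between its brightest probe sets did not overlap between the 2 groups. The others show what a match looks like in its setting. Mdh2 and Mdh1 are the mitochondrial and the cytosolic malate dehydrogenase. Idh3g is a regulatory subunit of the NAD-dependent isocitrate dehydrogenase, and Got1 is the cytosolic aspartate transaminase. Each run covers the 250 bases before the transcription start, 5′ to 3′ on the strand of the gene, from RefSeq on assembly GRCm38.p6. Capitals mark the ETS element CCGGAAG in Idh3g, which begins 104 bases before the start, and the shorter estrogen-related receptor element AAGGTCA in Got1, which begins 245 bases before it.
Mdh2, chr5:135778399-135778648, plus strand: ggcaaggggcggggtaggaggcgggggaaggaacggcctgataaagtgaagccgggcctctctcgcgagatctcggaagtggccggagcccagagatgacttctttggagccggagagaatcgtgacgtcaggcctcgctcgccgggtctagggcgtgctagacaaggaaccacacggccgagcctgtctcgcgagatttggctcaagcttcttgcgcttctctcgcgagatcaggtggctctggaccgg
Mdh1, chr11:21571935-21572184, minus strand: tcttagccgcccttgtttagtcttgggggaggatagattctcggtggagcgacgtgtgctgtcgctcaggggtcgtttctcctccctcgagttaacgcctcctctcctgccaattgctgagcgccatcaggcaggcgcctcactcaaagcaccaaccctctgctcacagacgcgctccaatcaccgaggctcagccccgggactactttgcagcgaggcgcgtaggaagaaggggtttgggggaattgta
Idh3g, chrX:73786898-73787147, minus strand: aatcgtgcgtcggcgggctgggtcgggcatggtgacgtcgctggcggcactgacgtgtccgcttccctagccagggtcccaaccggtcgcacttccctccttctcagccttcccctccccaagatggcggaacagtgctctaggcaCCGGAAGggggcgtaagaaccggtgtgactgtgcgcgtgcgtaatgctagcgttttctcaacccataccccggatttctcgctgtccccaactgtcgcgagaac
Got1, chr19:43524606-43524855, minus strand: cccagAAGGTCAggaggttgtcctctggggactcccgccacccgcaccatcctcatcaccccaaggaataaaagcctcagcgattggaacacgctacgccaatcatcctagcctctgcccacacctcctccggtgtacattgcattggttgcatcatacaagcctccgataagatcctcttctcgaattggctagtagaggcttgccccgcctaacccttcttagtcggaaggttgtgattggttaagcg

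Of the 42 measured members, 38 were found in the promoter table, with 51 promoters (250 bases before and 50 after the start). Both strands were searched. The core estrogen response element (GGTCA and TGACC with 3 bases between them) occurred in 0 of the 51 member promoters, and in 23 of all 32851 promoters (0.07%). The estrogen-related receptor element TCAAGGTCA occurred in 0 of 51, and in 139 of all promoters (0.423%). Its shorter form AAGGTCA, which is contained in the longer one and holds GGTCA, occurred in 2 of 51 (3.92%), those of Got1 and Ogdh, and in 4.72% of all promoters. The ETS element CCGGAAG occurred in 4 of 51 (7.84%), those of Auh, Dlst, Idh3b and Idh3g, and in 8.86% of all promoters. These last 2 motifs were chosen after the values of the genes had been seen. A match is a stretch of letters and was not tested as a binding site.

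No member passed the threshold of the study, an unadjusted limma p of 0.001 or less, in either direction. Over all probe sets 96 passed it (0.213%). The smallest p among the members was 0.00344, that of Mccc2, and the smallest adjusted p was 0.308, which was also the smallest over all probe sets. Of all probe sets 0 reached an adjusted p under 0.05 in limma, with 6216 at an unadjusted p under 0.05. At that weaker limit of p under 0.05, 16 of the 99 member probe sets were lower in OVX + E2 (16.2%) and 2 were higher, while 9.43% of all probe sets were lower and 4.35% higher. The 2 higher ones were dim probe sets of Sucla2 (difference 0.13) and Mdh1 (0.11), whose brightest probe sets had differences of -0.12 and -0.02.

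Nearly all members measured somewhat lower in OVX + E2, and so did most probe sets of the same brightness. With each gene given by its brightest probe set, 40 of 42 genes had a mean below that of OVX, with a median difference of -0.14 on the log2 scale (fold 0.909). The folds of OVX + E2 over OVX lay between 0.739 and 1.02. Over all probe sets the median difference was 0.00 and 52.3% were below 0. This comparison changes when members are set beside probe sets as bright as they are. For each gene the 1000 probe sets nearest to it in mean level were taken, and the median over genes of their median difference was also -0.14, with 89.2% of them below 0. Of the 42 genes, 19 lay below their own like-brightness median. At p under 0.05, 15 genes were lower (35.7%) and 0 higher, beside 35.9% of the probe sets of like brightness that were lower. In 17 genes the 3 OVX + E2 arrays lay all below the 3 OVX arrays, which held for 11.4% of all probe sets and for 36.2% of those of like brightness. The share of members measuring lower was therefore close to that of other transcripts of their level.

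**Figure D1:**
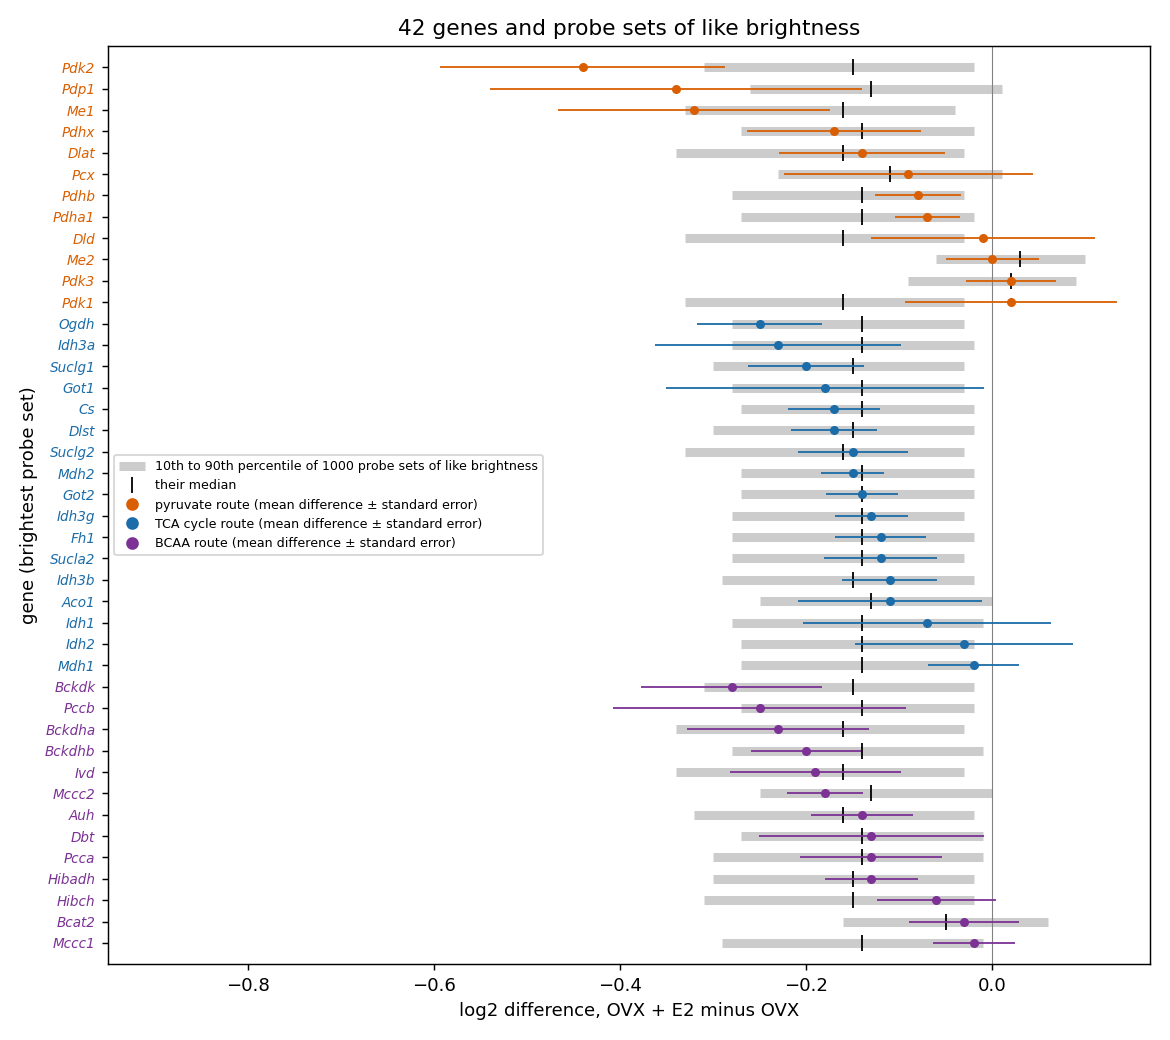
Mean log2 difference between OVX + E2 and OVX (horizontal axis) with its standard error for the brightest probe set of each of 42 genes (vertical axis), coloured by route; grey bars span the 10th to 90th percentile of the 1000 probe sets of like brightness and the black tick is their median. Points of 40 genes lie below 0, and Pdk2 and Pdp1 lie below their grey bars while Dld and Pdk1 lie above them.

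The difference went with the level and with the normalization between arrays. Of 63 member probe sets with a mean of 8 or more, 60 were below 0 (median -0.14), and of 36 under 8, 22 were (median -0.02). When the deposited values were normalized again by cyclic loess, which removes a dependence of the difference on the level, 22 of 42 genes were below 0 with a median of 0.00, and 0 were lower and 1 higher at p under 0.05 (Mccc1). With quantile normalization 18 of 42 were below 0 and the median was 0.02. A direction for the group as a whole was thus not kept across these scalings, and the same holds for each route below.

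The pyruvate route held both the largest differences and the genes nearest to 0. Of its 12 genes 10 were below 0, with a median of -0.08, beside -0.14 for probe sets of like brightness. At p under 0.05 it had 1 lower gene (8.33%), beside 31.6% of those of like brightness. Pdk2, a kinase that inactivates pyruvate dehydrogenase, measured 10.57, 10.62 and 10.10 in OVX + E2, against 10.80, 10.72 and 11.09 in OVX. The arrays of the groups did not overlap, and the third array of each group lay at the far end, lowest in OVX + E2 and highest in OVX. The difference was -0.44 with a standard error of 0.153 (fold 0.739, limma p 0.0244, adjusted p 0.328). It was -0.272 without OVX + E2 replicate 3, -0.153 with the fast fibre markers as a covariate and -0.161 without both arrays numbered 3. The limma p was above 0.05 without OVX replicate 3 (0.07), with cyclic loess (0.0728) and with the covariate (0.147). The same held with quantile normalization (0.0681) and with the replicate number as a block (0.0667). Pdp1, a phosphatase with the opposite action on the same complex, measured 8.53, 8.60 and 8.08 in OVX + E2, against 8.77, 8.37 and 9.09 in OVX. Its groups overlapped, with the same extremes on the third arrays, and the difference was -0.34 with a standard error of 0.20. Pdk1, another kinase of the complex, measured 10.26, 10.14 and 10.47 in OVX + E2, against 10.36, 10.39 and 10.05 in OVX, with a difference of 0.02. It ran the other way on the third arrays, highest in OVX + E2 and lowest in OVX.

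The subunits of the pyruvate dehydrogenase complex itself differed little. Pdha1, its catalytic alpha subunit, measured 12.51, 12.54 and 12.54 in OVX + E2, against 12.60, 12.61 and 12.57 in OVX, a difference of -0.07 with a standard error of 0.035. Pdhb, the beta subunit, measured 11.85, 11.90 and 11.93 in OVX + E2, against 12.05, 11.93 and 11.95 in OVX, a difference of -0.08. Neither gene had overlapping groups, although for Pdhb the nearest arrays differed by less than the digits given, and both changed sign under cyclic loess, to 0.069 for Pdha1 and 0.057 for Pdhb. Pdhx, which tethers Dld to the complex, measured 8.87, 9.14 and 8.87 in OVX + E2, against 9.18, 8.98 and 9.23 in OVX, and the groups overlapped. Dlat, the acetyltransferase core, had a difference of -0.14, and Dld, the dihydrolipoamide dehydrogenase that the pyruvate, oxoglutarate and BCAA complexes share, one of -0.01.

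The other enzymes around pyruvate were malic enzymes and pyruvate carboxylase. Me1, the cytosolic malic enzyme that makes NADPH, measured 9.85, 9.68 and 9.69 in OVX + E2, against 9.90, 9.86 and 10.42 in OVX. The groups did not overlap, OVX replicate 3 stood well above the other 5 arrays, and the difference was -0.32 (fold 0.801, limma p 0.0634). Without OVX replicate 3 it was -0.14, and without both arrays numbered 3 it was -0.114. Without OVX replicate 2 the limma p was 0.0286. Me1 is also a gene of fat cells, and the fat cell markers deviated by 0.13, 0.01 and -0.13 in OVX + E2 and by 0.40, -0.08 and -0.33 in OVX; their part in the result was not tested. Pcx, which turns pyruvate into oxaloacetate, had a difference of -0.09, and 4 of its 5 probe sets are control probe sets of the array. Me2 (0.00) and Pdk3 (0.02) were measured only by dim probe sets with a mean under 8.

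All 17 genes of the TCA route were below 0, with a median of -0.14, which equals that of probe sets of like brightness. At p under 0.05, 9 were lower (52.9%), beside 39.5% of those of like brightness, and 8 had no overlap between groups, beside 40.1% of those of like brightness. Mdh2, the mitochondrial malate dehydrogenase, measured 12.80, 12.79 and 12.78 in OVX + E2, against 12.94, 12.92 and 12.95 in OVX. The spread within each group was small beside the difference of -0.15, whose standard error was 0.034 (fold 0.904, limma p 0.00357, adjusted p 0.308). A second Mdh2 probe set of similar brightness measured 12.82, 12.80 and 12.75 in OVX + E2, against 12.90, 12.92 and 12.83 in OVX. Its difference was -0.10 (limma p 0.0517), again with no overlap. Ogdh, the first subunit of the oxoglutarate dehydrogenase complex, measured 11.58, 11.70 and 11.46 in OVX + E2, against 11.80, 11.79 and 11.91 in OVX. The difference was -0.25 with a standard error of 0.067 (fold 0.841, limma p 0.00724). Dlst, its succinyltransferase, measured 10.76, 10.89 and 10.84 in OVX + E2, against 11.02, 11.01 and 10.96 in OVX, a difference of -0.17 (fold 0.891, limma p 0.00808). In both subunits every OVX + E2 array lay below every OVX array. With cyclic loess the differences were -0.010 for Mdh2, -0.109 for Ogdh and -0.022 for Dlst, and none of the 3 genes was then under p of 0.05.

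Cs, the citrate synthase that opens the cycle and is a common gauge of mitochondrial content, measured 12.35, 12.36 and 12.22 in OVX + E2, against 12.46, 12.46 and 12.51 in OVX. Got2, the mitochondrial aspartate transaminase of the malate-aspartate shuttle, measured 12.54, 12.57 and 12.49 in OVX + E2, against 12.70, 12.65 and 12.69 in OVX. Neither gene overlapped between the groups, with differences of -0.17 for Cs (standard error 0.049, limma p 0.0106) and -0.14 for Got2 (standard error 0.039, limma p 0.00848). With cyclic loess these were -0.030 for Cs and -0.005 for Got2. Lower at p under 0.05 were also Idh3g (-0.13), Suclg1 and Suclg2, subunits of succinyl-CoA ligase (-0.20 and -0.15), and Fh1, the fumarase (-0.12).

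The cytosolic members of the route and Idh2 lay closer to 0 or varied more. Mdh1 measured 13.32, 13.37 and 13.33 in OVX + E2, against 13.41, 13.41 and 13.27 in OVX, a difference of -0.02. Idh2, the mitochondrial NADP-dependent isocitrate dehydrogenase, measured 12.59, 12.75 and 12.67 in OVX + E2, against 12.69, 12.95 and 12.45 in OVX, a difference of -0.03. In both genes the third OVX array was the lowest of the 6. Idh1 and Aco1, the cytosolic isocitrate dehydrogenase and aconitase, had differences of -0.07 and -0.11, and Got1 had one of -0.18 with a standard error of 0.171. Idh3a, the catalytic subunit of the NAD-dependent enzyme, had -0.23 with overlapping groups, whereas Idh3b (-0.11) and Idh3g had no overlap.

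In the BCAA route all 13 genes were below 0, with a median of -0.14 that again equals that of like brightness. At p under 0.05, 5 were lower (38.5%), beside 35.2% of those of like brightness. Bcat2, the mitochondrial transaminase that takes the first step, was dim and had a difference of -0.03. Of the dehydrogenase complex that follows, Bckdhb, a subunit of its decarboxylase, measured 9.14, 9.14 and 8.99 in OVX + E2, against 9.34, 9.20 and 9.32 in OVX. The groups did not overlap and the difference was -0.20 with a standard error of 0.059 (fold 0.872, limma p 0.0121). Bckdha, the partner subunit, had -0.23 with overlapping groups, and Dbt, the core of the complex, had -0.13. Bckdk, the kinase that inactivates the complex, measured 9.58, 9.53 and 9.33 in OVX + E2, against 9.71, 9.62 and 9.94 in OVX. Its difference of -0.28 (standard error 0.097, fold 0.825, limma p 0.0239) was the most negative of the route, with the third arrays at both ends. It was -0.184 without OVX replicate 3, -0.118 with the fast fibre covariate and -0.111 without both arrays numbered 3. The limma p was above 0.05 without OVX replicate 3 (0.0553), without OVX + E2 replicate 3 (0.0767) and without both arrays numbered 3 (0.0882). The same held with the covariate (0.186), the replicate block (0.0631), quantile normalization (0.161) and cyclic loess (0.148).

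Further down the route, Mccc2, a subunit of methylcrotonyl-CoA carboxylase in leucine breakdown, measured 8.47, 8.41 and 8.45 in OVX + E2, against 8.62, 8.57 and 8.67 in OVX. Its difference of -0.18 (standard error 0.041, fold 0.885) had the smallest limma p of all members, whereas its partner subunit Mccc1 had a difference of -0.02. The dimmer probe sets of Mccc2 had -0.16 and -0.10 (limma p 0.138 and 0.388). Auh, the next enzyme of leucine breakdown, measured 9.63, 9.65 and 9.66 in OVX + E2, against 9.77, 9.70 and 9.90 in OVX. Hibadh, an enzyme of valine breakdown, measured 10.80, 10.80 and 10.90 in OVX + E2, against 10.91, 10.94 and 11.04 in OVX. Both were below OVX on every array, by -0.14 for Auh (limma p 0.0340) and -0.13 for Hibadh (limma p 0.0328), and both changed sign under cyclic loess, to 0.004 and 0.011. Auh was -0.089 without OVX replicate 3, and its limma p was above 0.05 on leaving out any array but OVX replicate 2, that of Hibadh on leaving out OVX + E2 replicate 1, OVX + E2 replicate 2 or OVX replicate 3. Ivd, the isovaleryl-CoA dehydrogenase, had -0.19, but its second probe set, of similar brightness, had 0.04. Hibch, an enzyme of valine breakdown, had -0.06, and Pcca and Pccb, the subunits of propionyl-CoA carboxylase, had -0.13 and -0.25.

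**Figure D2:**
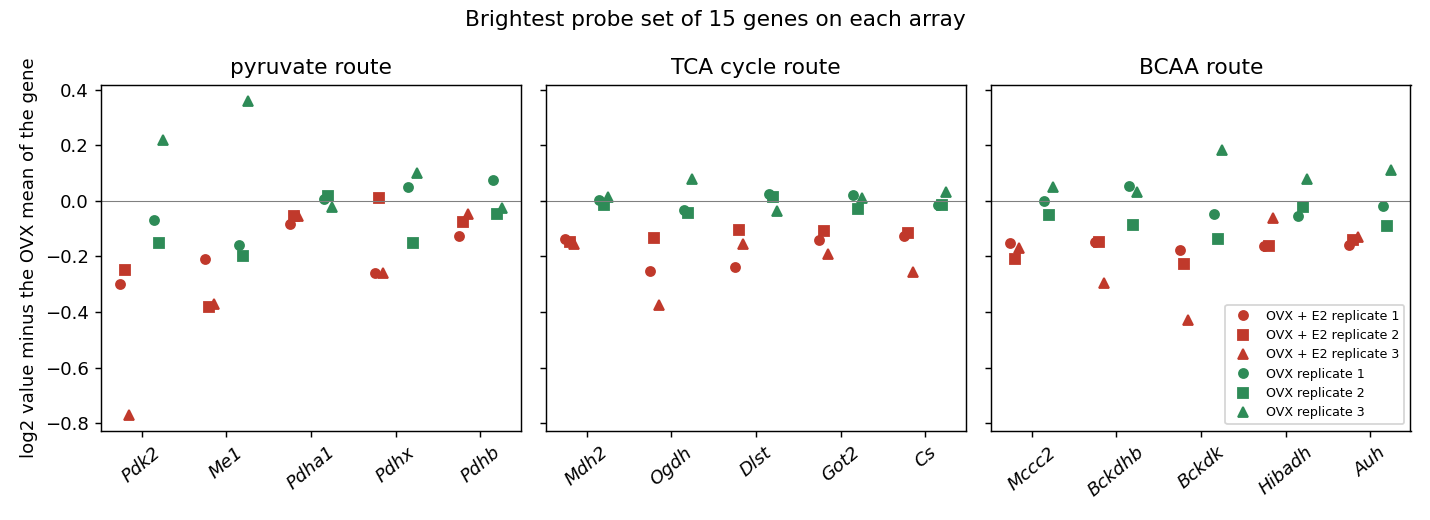
Log2 value of the brightest probe set on each of the 3 OVX + E2 arrays (red, left of each gene) and 3 OVX arrays (green, right), minus the OVX mean of the gene (vertical axis), for the 5 genes with the smallest p in each route; marker shapes give the replicate number. In 14 of the 15 genes all red points lie below all green ones, with Pdhx the exception. The red triangle of replicate 3 reaches furthest down for Pdk2 (10.10 before the OVX mean is subtracted). The green triangle of replicate 3 reaches furthest up for Me1 (10.42 before subtraction).

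An exact permutation test over the 20 labelings of the arrays gave a two-sided p of 0.1 for 14 of these 15 genes and 0.2 for Pdhx. With 3 arrays against 3, 0.1 is the smallest p this test can give, so it cannot reach 0.05. Of these genes 12 had further probe sets, 22 in all. The 8 with a mean of 8 or more were all below 0, as were 92.5% of those of like brightness, for example those of Me1 (-0.32), Got2 (-0.23) and Cs (-0.25 and -0.18). Among these examples only the Cs probe set at -0.18 had no overlap between the groups (limma p 0.0654). The limma p was 0.176 for Me1, 0.303 for Got2 and 0.357 for the other Cs probe set. Of all 22, 17 were below 0, and the others were dim probe sets of Auh and Dlst, with differences of up to 0.11.

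Pairs of enzymes were also compared within arrays, 5 in all, chosen after their values had been seen, so that the values below describe these pairs. For 3 pairs both enzymes are of the same route, and Ogdh and Bckdhb were each set against Dld, with which their complexes work. None reached 0.05 in the exact permutation test, whose smallest p is 0.1. The 2 probe sets of a pair bind with different strength, so only the change of their log2 difference between groups can be read. Mdh2 minus Mdh1 was -0.52, -0.57 and -0.54 in OVX + E2, against -0.46, -0.48 and -0.31 in OVX. By these brightest probe sets the mitochondrial enzyme was lower relative to the cytosolic one on every OVX + E2 array. The change was -0.12 (exact permutation p 0.1, Benjamini-Hochberg 0.25 over the 5 pairs). The other Mdh2 probe set had a smaller difference between the groups (-0.10) and was not set against Mdh1. The brightest probe set of Mdh2 (-0.15) lay near its like-brightness median (-0.14), while that of Mdh1 (-0.02) lay above its own (-0.14). Ogdh minus Dld was 1.34, 1.20 and 1.21 in OVX + E2, against 1.37, 1.70 and 1.39 in OVX, which also did not overlap, and had the same p. Here Ogdh (-0.25) lay below its like-brightness median (-0.14) and Dld (-0.01) above its own (-0.16). Bckdhb minus Dld, Pdk2 minus Pdk1 and Idh3g minus Idh2 overlapped between the groups, with differences of -0.19, -0.46 and -0.10 and exact p of 0.2, 0.4 and 0.7.

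The mean of each route on each array showed which arrays carried these differences. The pyruvate genes deviated from their own means by -0.04, -0.03 and -0.14 in OVX + E2, against 0.10, -0.05 and 0.15 in OVX. The TCA genes deviated by -0.07, 0.00 and -0.14 in OVX + E2, against 0.11, 0.03 and 0.07 in OVX. The BCAA genes deviated by -0.07, -0.01 and -0.15 in OVX + E2, against 0.07, -0.01 and 0.17 in OVX. In all 3 routes OVX + E2 replicate 3 was the lowest array, and of the 3 routes only the TCA route had every OVX + E2 array below every OVX array. The highest array was OVX replicate 3 in the pyruvate and BCAA routes and OVX replicate 1 in the TCA route. Of the 42 genes, 4, 18 and 4 lay above their own mean on the OVX + E2 arrays, against 41, 20 and 34 on the OVX arrays. In the TCA and BCAA routes the second arrays of the 2 groups were the closest to each other. In the pyruvate route OVX replicate 2 (-0.05) was nearest to OVX + E2 replicate 1 (-0.04) and lay below OVX + E2 replicates 1 and 2.

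**Figure D3:**
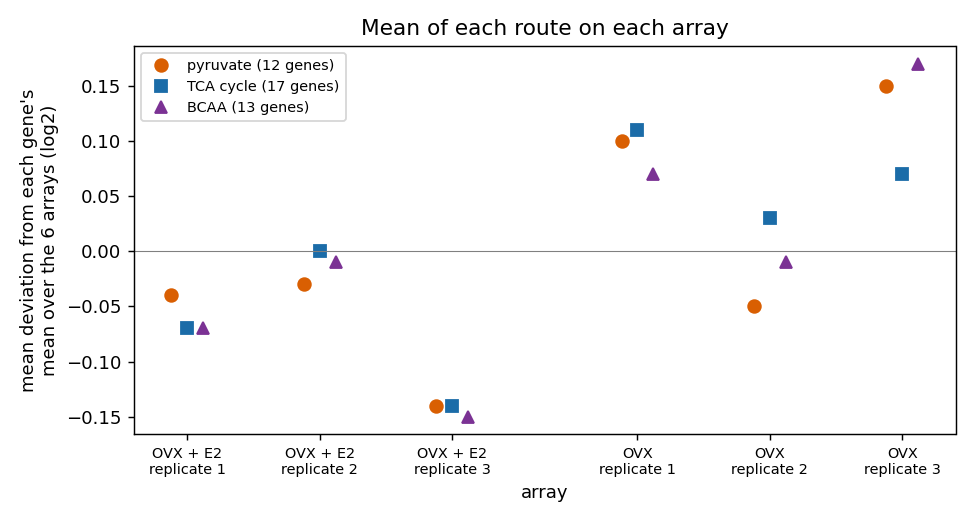
Mean log2 deviation of each route's genes from their own mean over the 6 arrays (vertical axis), for each OVX + E2 array (left) and OVX array (right); orange circles are the pyruvate, blue squares the TCA and purple triangles the BCAA route. OVX + E2 replicate 3 lies lowest in all 3 routes, at -0.14, -0.14 and -0.15, and OVX replicate 2 lies between -0.05 and 0.03.

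Of the 42 genes, 16 were at their lowest on OVX + E2 replicate 3 and at their highest on OVX replicate 3 (38.1%), as were 10.3% of all probe sets; among them were Pdk2, Pdp1, Pdhx, Mdh2, Ogdh, Cs, Bckdk and Pccb. Only Pdk1 showed the reverse (2.38%, beside 6.10% of all probe sets). A mean of 8 or more was found in 39 of the 42 genes, and shares among probe sets of like brightness were not taken here. Whether either pattern is more frequent in these genes than in other transcripts of their level was thus not tested. Markers of fast muscle fibres, such as Myh4 and Actn3, moved with the pattern of the 16 genes. All 10 were below 0, with differences from -2.15 for Myh4 to -0.20 for Tnni2. The median difference of probe sets of like brightness was -0.14 for both, and their share below 0 was not taken here. The mean deviation of the 10 markers was 0.33, -0.20 and -1.51 in OVX + E2, against 0.17, 0.28 and 0.93 in OVX. Their summed level was 15.44 to 16.37 in OVX + E2 and 16.26 to 16.87 in OVX. The 8 slow fibre markers deviated by 0.06, -0.03 and 0.02 in OVX + E2, against 0.10, 0.14 and -0.29 in OVX. In bulk RNA, fewer fibres of a type and less RNA per fibre cannot be told apart. Without both arrays numbered 3, 36 of 42 genes were below 0 with a median of -0.10, beside -0.12 for like brightness. At p under 0.05, 8 were then lower, 2 of the pyruvate, 4 of the TCA and 2 of the BCAA route (19.0% of all 42, beside 29.6% for like brightness and 7.54% of all probe sets). With the mean of the fast fibre markers as a covariate, 37 of 42 were below 0 with a median of -0.09, beside -0.11 for like brightness, and 3 were lower at p under 0.05 (7.14%, beside 15.6% for like brightness and 4.09% of all probe sets).

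Where a gene had more than 1 probe set, these did not always tell the same story. Among 24 comparisons of a dimmer probe set with the brightest one of its gene (both with a mean of 8 or more, in 18 genes), the difference between the 2 ranged over more than 0.5 across the arrays in 5, of Pdha1, Cs, Idh3a, Got2 and Ivd. For Pdha1 it was -1.08, -0.79 and -1.59 in OVX + E2, against -1.03, -1.58 and -0.90 in OVX. For Cs it was -1.59, -1.33 and -2.07 in OVX + E2, against -1.51, -1.95 and -1.27 in OVX, and for Got2 it was -1.47, -1.41 and -1.96 in OVX + E2, against -1.43, -1.86 and -1.30 in OVX. In these 3 genes the lowest arrays were OVX + E2 replicate 3 and OVX replicate 2, that is, 1 array of each group. Idh3a and Ivd ran otherwise, with their highest value on OVX + E2 replicate 3 and their lowest on OVX replicate 3. For Idh3a the difference was -3.32, -3.40 and -2.98 in OVX + E2, against -3.45, -3.35 and -3.57 in OVX, and for Ivd it was -0.17, -0.20 and 0.13 in OVX + E2, against -0.21, -0.29 and -0.43 in OVX.

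The Gapdh control of the array, which has probe sets at the 5′ and the 3′ end of the transcript, had a 5′ minus 3′ value of -0.02, 0.07 and -0.38 in OVX + E2, against -0.02, -0.16 and 0.02 in OVX. The same 2 arrays were again the lowest. They were the lowest in 11 of the 24 comparisons (45.8%), and in 626 of 2509 such comparisons over all genes. The 18S rRNA controls separated the groups instead. The probe set for the 5′ end measured 7.64, 8.08 and 8.47 in OVX + E2, against 7.26, 7.31 and 7.24 in OVX, the middle one 7.13, 7.28 and 7.66 in OVX + E2, against 7.04, 6.97 and 6.90 in OVX, and that for the 3′ end 7.81, 7.84 and 8.49 in OVX + E2, against 7.64, 7.54 and 7.55 in OVX. All 3 were highest on OVX + E2 replicate 3, the array on which every route was lowest. These controls bear on RNA quality and composition, and their part in the differences above was not tested. Without these 2 arrays, left out after the data had been seen, 39 of 42 genes were below 0 with a median of -0.13, equal to that of like brightness, and 14 were lower at p under 0.05 (33.3%, beside 28.0% for like brightness and 7.11% of all probe sets).

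Other enzymes and carriers of the 3 routes, from a list of 40 genes written from textbook knowledge, gave a similar picture. Of 36 measured, 27 were below 0 with a median of -0.10, and 0 passed p of 0.001. Probe sets of like brightness had a median of -0.14, with 80.5% below 0 and 28.8% lower at p under 0.05. At that limit 9 of the 36 were lower and 1 was higher, the dim Pdha2 (0.10), a pyruvate dehydrogenase subunit of the testis. Ldha, the lactate dehydrogenase subunit typical of fast muscle, measured 12.18, 11.91 and 11.81 in OVX + E2, against 12.22, 12.21 and 12.85 in OVX, with a difference of -0.46. Sdhb, a subunit of succinate dehydrogenase, had -0.12, Glud1, the glutamate dehydrogenase, had -0.19, and Pdpr, which regulates pyruvate dehydrogenase phosphatase, had -0.22. On the BCAA side Ppm1k, the phosphatase that opposes Bckdk, had -0.10 and Slc25a44, the mitochondrial BCAA carrier, had -0.19. Hadh (-0.18), Mcee (-0.11) and Oxct1 (-0.11), of fatty acid oxidation, propionate breakdown and ketone use, were also lower at that limit.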

How the data were processed

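Biotinylated cRNA was hybridized to Affymetrix mouse genome arrays, 3 of OVX + E2 and 3 of OVX. The authors background-corrected the scans, applied variance stabilization and normalization, summarised probe sets by median polish and deposited log2 values in arbitrary units (R 2.14.2 in the submitters' processing notes). The labels give a fibrous tissue kit for RNA isolation and the study another reagent. Arrays have no read depth, and their number limits the precision. The annotation names 1 gene for 34958 of the 45101 probe sets, several for 932 and none for 9211, and only the first kind was used.

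The deposited values were fitted in limma 3.58.1 (lmFit, eBayes; R 4.3.3) over all probe sets, two-sided, OVX + E2 minus OVX, with no covariate. The threshold was an unadjusted p of 0.001, and adjusted p-values are Benjamini-Hochberg over all probe sets. The script was tested on simulated data. A gene was represented by its probe set with the highest mean. Values on each array are given for the 5 genes with the smallest p in each route, and other members were named for their role; other pathway genes were named at p under 0.05. The array values of Pdk1, Pdp1, Mdh1, Idh2 and Ldha were added after they had been seen. The members and the lists were chosen with earlier results of these data known. Alternative settings were median centring, quantile normalization, cyclic loess (3 iterations), a filter on dim probe sets, a replicate block, an intensity trend, a fast fibre covariate, another probe set per gene, a narrower choice of members, and leaving out arrays.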

Additional observations from a re-analysis of the deposited data

How the results depend on the processing

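Probe sets called over the whole table numbered 96, against 31 with quantile normalization, 31 with cyclic loess, 164 with median centring, 30 with bright probe sets only, 39 with an intensity trend, 6 with the fast fibre covariate, 37 without both arrays numbered 3, 14 without OVX replicate 2 and OVX + E2 replicate 3 (chosen after seeing the data), and 19 (without OVX + E2 replicate 3) to 76 when 1 array was left out. Member calls were 0 in each of these. The 16 member probe sets lower at p under 0.05 became 0 with quantile normalization, 0 with cyclic loess, 9 with the trend, 3 with the covariate, 8 without both arrays numbered 3, and 11 to 28 when 1 array was left out, 28 being without OVX replicate 2. The cause was not tested.

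Over all probe sets of a route, the pyruvate median of -0.043 became 0.011 with quantile normalization and -0.101 to -0.004 with 1 array left out. The TCA median of -0.109 became -0.000 with quantile normalization, -0.011 with cyclic loess, -0.053 without both arrays numbered 3, and -0.140 to -0.076 with 1 array left out. With 1 probe set per gene the TCA median was -0.167 for that of largest interquartile range, beside -0.14 for the brightest. The BCAA median of -0.087 became 0.002 with quantile normalization, -0.013 with cyclic loess, -0.021 with the covariate, -0.012 without both arrays numbered 3, and -0.124 to -0.038 with 1 array left out. Of 231 alternative fits of the 15 genes with array values, 222 kept their sign, but not all kept their size or their side of p of 0.05. The filter on dim probe sets, the replicate block and the intensity trend leave a difference unchanged in this design. Their fits therefore kept the sign by construction, and median centring shifts every gene alike. With quantile normalization 10 of the 15 genes were below 0, and with cyclic loess 11. In the main fit 11 of the 15 genes were under p of 0.05. This became 0 with quantile normalization, 0 with cyclic loess, 9 with the replicate block (without Pdk2 and Bckdk), 8 with the trend, 3 with the covariate and 6 without both arrays numbered 3. The probe set of largest interquartile range was another one for 6 of the genes, of which 0 were then under it. Got2, Cs and Mccc2 thereby moved above it (limma p 0.303, 0.357 and 0.388). Mdh2 was -0.010 with quantile normalization and with cyclic loess. The 9 fits with another sign were Pdha1 (0.074 with quantile normalization, 0.069 with cyclic loess), Pdhb (0.076, 0.057), Hibadh (0.024, 0.011), Auh (0.029, 0.004) and Got2 (0.002 with quantile normalization).

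The labels number the arrays 1 to 3 in both groups, and the numbers were not taken as pairs. Deviations of same-numbered arrays correlated at -0.13, -0.20 and -0.34. Without those of differently numbered arrays beside them, these values cannot decide if the arrays are paired. With the replicate block 21 probe sets were called over the whole table, 0 of them members, and 14 member probe sets were lower at p under 0.05. The number of arrays, 3 in each group, limits the precision.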
